A study of Homo sapiens with 6 samples.

Results

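The amino acid transporter genes of U2OS cells, an osteosarcoma line, were compared between 3 Lv_LINC00673 and 3 Lv_NC RNA-seq libraries. They were taken by symbol: every SLC1A, SLC7A, SLC36A, SLC38A and SLC43A gene, together with SLC3A1, SLC3A2, SLC6A9, SLC6A14 and SLC6A15, without antisense or numbered copy rows. This gave 43 genes of the 50550 rows in the count table, and 31 of the 43 had enough counts to be tested. The Lv_LINC00673 libraries carry the genotype label LINC00673, and the design text describes knockdown of this long noncoding RNA. The Lv_NC libraries carry the genotype label NC, whose meaning the labels do not give, while the design text speaks of wild-type cells. All libraries came from total RNA of the same line. Culture conditions, the knockdown construct and the time of harvest were not given, nor whether replicate libraries were grown separately, so that p-values measure the spread between libraries, which may be technical.

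Amino acids cross membranes on carriers that differ in substrate and energy source. The SLC7 light chains exchange one amino acid for another and need a single-pass heavy chain, SLC3A1 or SLC3A2, to reach the cell surface. SLC1 and SLC38 carriers use the sodium gradient to take up glutamate, glutamine and small neutral amino acids. Some SLC36 carriers, SLC36A1 among them, use protons, and SLC43 carriers are facilitators. Glutamine taken up through SLC1A5 or SLC38 carriers can leave again through SLC7A5-SLC3A2 in exchange for leucine, a signal to the growth kinase mTORC1. Many of these genes are known targets of ATF4, the transcription factor made when eIF2 alpha is phosphorylated, and SLC7A11 is also a target of NRF2, the oxidative stress factor.

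Total counts were 61815841 to 71237493 in Lv_LINC00673 and 76814723 to 87227980 in Lv_NC. LINC00673 itself stood at 6.54, 6.23 and 6.38 CPM (read counts scaled to library size with TMM factors) in Lv_LINC00673, against 9.16, 9.27 and 7.07 CPM in Lv_NC. The groups did not overlap, but the log2 fold change of -0.41 (SE 0.16) did not pass edgeR's quasi-likelihood test with Benjamini-Hochberg adjustment over all tested genes (adjusted p = 0.0924), so the groups are called by their library titles. DESeq2 gave -0.44 (adjusted p = 0.0421). Of 7 mesenchymal and osteoblast markers, 5 were above 1 CPM in every library, with sums of 3160 to 3530 CPM in Lv_LINC00673 and 2740 to 2960 CPM in Lv_NC; SP7 and COL1A2, which mark osteoblasts, were at or near 0. The summed blood markers PTPRC, CD3E and CD14 were at 0.134 to 0.273 CPM in Lv_LINC00673 and 0.0775 to 0.356 CPM in Lv_NC. Epithelial markers (EPCAM, CDH1 and CLDN4) summed to 21 to 21.8 CPM in Lv_LINC00673 and 16 to 19.2 CPM in Lv_NC, and endothelial markers (PECAM1, VWF and CDH5) to 4.82 to 6.17 CPM in Lv_LINC00673 and 3.49 to 4.03 CPM in Lv_NC; their part in the results was not tested. Fold changes of all genes followed the GC content of their transcripts: the median log2 fold change was 0.42 over 4000 genes under 45% GC and -0.22 over 7973 genes at or over it. Library 1 of each group was nearly flat along GC, with a median log2 deviation of 0.006 in Lv_LINC00673 library 1 and -0.05 in Lv_NC library 1 for the GC decile of genes lowest in GC. The other Lv_LINC00673 libraries stood there at 0.47 and 0.37, and the other Lv_NC libraries at -0.57 and -0.21. Values from a fit with an offset for GC content and length in each library, called the offset, are given beside the called members and the lists.

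The members did not move in one direction. Of 31 tested, 6 were called higher and 8 lower in Lv_LINC00673 at an adjusted p under 0.05, which is 45.2% against 26.8% of all 21933 tested genes (14.3% higher and 12.5% lower). Genes of at least 1 CPM were called more often in general: 12 of the 26 members above that level were called (46.2%), against 34.5% of all such genes. The median log2 fold change of the tested members was 0.09, and that of all tested genes 0.05. Groups did not overlap for 17 of 31 members (54.8%), 7 higher and 10 lower, against 45.1% of all tested genes (23.7% higher and 21.4% lower). With the offset, 7 members were called higher and 8 lower, against 30.1% of 18492 genes called (15.6% higher and 14.5% lower); 11 members had the same call in both fits, and the members' median was -0.15, against 0.06 for all genes. Scaled by library totals alone in place of TMM, 6 members were called higher and 5 lower, and 76.8% of the calls over all genes were higher in place of 53.5%. In bulk RNA, fewer cells of a kind and less RNA per cell cannot be told apart. Leaving out 1 library lowered the higher calls to 3 without Lv_LINC00673 library 2, Lv_NC library 2 or Lv_NC library 3, and to 4 without Lv_LINC00673 library 3. It lowered the lower calls to 5 without any one of those 4 libraries, which also took the calls among all genes to between 2800 and 3677, from 5883.

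The higher members were SLC38A1, SLC38A2, SLC38A4, SLC38A5, SLC1A1 and SLC1A3. The lower members were SLC3A2, SLC7A1, SLC7A5, SLC7A6, SLC1A5, SLC1A6, SLC43A1 and SLC6A9. These include the members with the most RNA per length: SLC3A2, SLC1A5 and SLC7A5 had the highest deposited FPKM and together held 69.9 to 73.4% of the FPKM summed over members in Lv_LINC00673, against 76.9 to 79.4% in Lv_NC. Over all 43 members, the counts made up 0.253 to 0.262% of a library in Lv_LINC00673 and 0.290 to 0.305% in Lv_NC, without overlap.

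**Figure D1:**
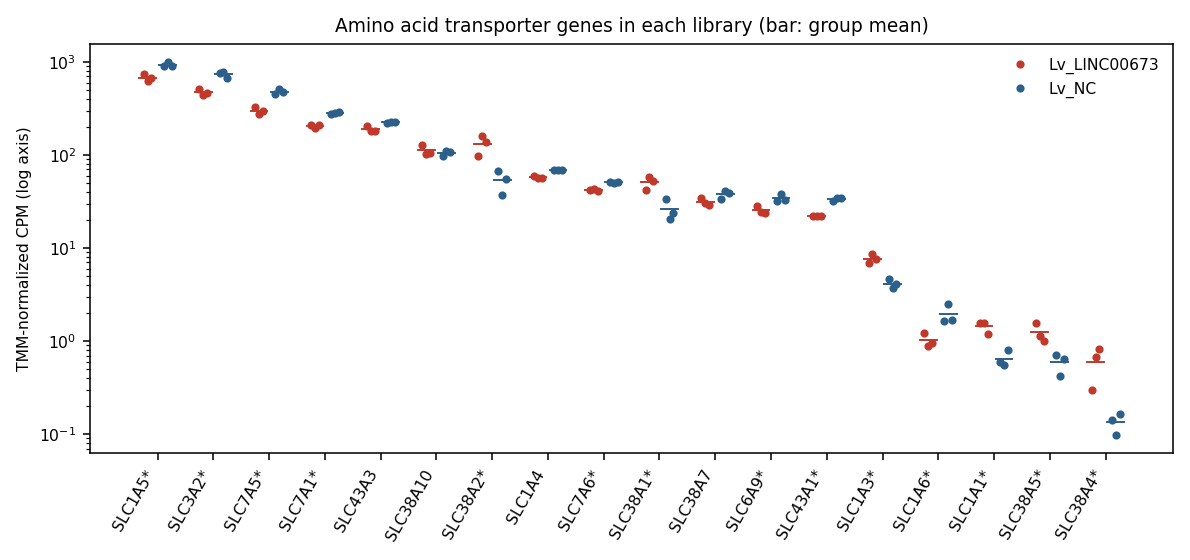
TMM-normalized CPM (log axis) of the 14 called members (asterisk) and of the members among the 12 of highest FPKM that were not called, with 1 point per library and a bar at each group mean. SLC1A5, SLC3A2, SLC7A5 and SLC7A1 lie lower in all 3 Lv_LINC00673 libraries than in all 3 Lv_NC libraries, and SLC38A2 and SLC38A1 lie higher.

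**Figure D2:**
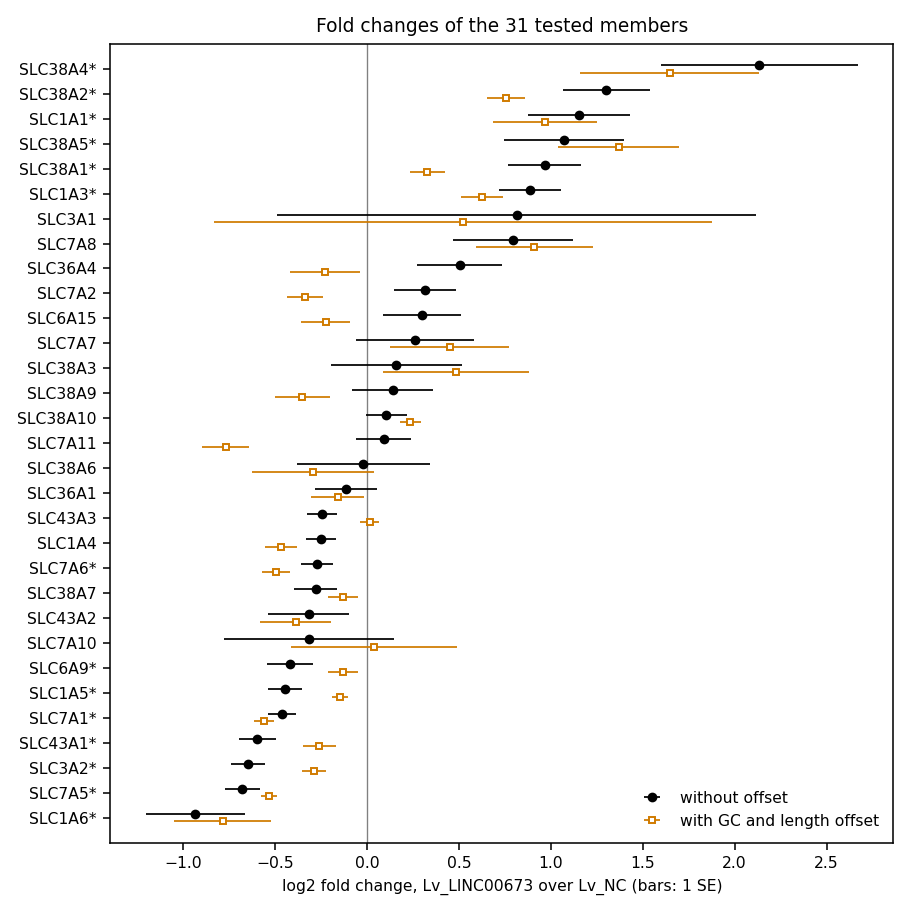
Log2 fold change of Lv_LINC00673 over Lv_NC for the 31 tested members, with bars of 1 SE, from the fit without the offset (filled) and with it (open); an asterisk marks a call without the offset. SLC38A2 stays above 0 (1.30 and 0.76) and SLC7A5 below it (-0.68 and -0.53) in both fits, while SLC7A11 lies at 0.09 without and -0.77 with the offset.

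Promoters are shown for 3 lower members and 1 higher member of high expression, to set side by side the letters before genes that moved in opposite directions. RefSeq windows on GRCh38.p14 reach from 250 bases before to 50 bases after a start, counted as base 0, and 33 members had at least 1 window. They were searched on both strands for TGATGNAA, the form of the element bound by ATF4 with C/EBP factors, and TGACNNNGC, the core of the antioxidant response element bound by NRF2. The second form can also hold the AP-1 letters TGACTCA, as it does at SLC3A2. TGATGNAA was present in 6 of 55 member windows (SLC1A3, SLC1A4, SLC1A5, SLC38A1, SLC3A2 and SLC7A1), and in 3.62% of all 35116 windows. TGACNNNGC was present in 7 member windows (SLC1A3, SLC1A5, SLC3A2, SLC7A1, SLC7A5, SLC7A6 and SLC7A7) and in 13.3% of all. Both lists of genes hold members called higher and members called lower. The higher ones are SLC38A1 and SLC1A3 for TGATGNAA and SLC1A3 for TGACNNNGC, and their windows are not shown. Capitals mark the matches: at SLC3A2 (chr11:62881449-62881748, plus strand) TGACNNNGC begins at -37 and the reverse complement of TGATGNAA at 37, at SLC7A1 (chr13:29595639-29595938, minus strand) TGACNNNGC begins at -85 and TGATGNAA at 7, and at SLC7A5 (chr16:87869458-87869757, minus strand) TGACNNNGC begins at -2. SLC3A2 has 3 RefSeq windows, and the one shown is the only one of them with a match. The SLC38A2 window (chr12:46372724-46373023, minus strand) holds neither set of letters. A match describes letters only, and a window without one says nothing of the factor.
SLC3A2: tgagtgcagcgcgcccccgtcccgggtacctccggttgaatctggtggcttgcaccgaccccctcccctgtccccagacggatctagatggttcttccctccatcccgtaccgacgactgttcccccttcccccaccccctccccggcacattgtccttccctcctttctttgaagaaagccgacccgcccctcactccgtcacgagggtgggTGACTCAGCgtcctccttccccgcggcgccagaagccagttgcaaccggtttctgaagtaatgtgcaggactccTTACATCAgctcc
SLC7A1: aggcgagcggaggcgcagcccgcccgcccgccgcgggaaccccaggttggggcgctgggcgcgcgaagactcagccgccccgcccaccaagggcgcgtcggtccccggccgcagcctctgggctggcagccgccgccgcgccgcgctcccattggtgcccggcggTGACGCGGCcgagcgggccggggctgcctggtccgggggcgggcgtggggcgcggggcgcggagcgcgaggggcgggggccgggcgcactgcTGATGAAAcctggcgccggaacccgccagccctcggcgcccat
SLC7A5: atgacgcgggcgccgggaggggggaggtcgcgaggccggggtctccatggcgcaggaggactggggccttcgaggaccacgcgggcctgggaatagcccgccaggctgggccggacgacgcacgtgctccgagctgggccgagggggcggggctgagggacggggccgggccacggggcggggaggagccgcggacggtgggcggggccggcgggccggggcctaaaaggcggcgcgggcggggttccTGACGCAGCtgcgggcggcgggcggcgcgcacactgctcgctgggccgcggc
SLC38A2: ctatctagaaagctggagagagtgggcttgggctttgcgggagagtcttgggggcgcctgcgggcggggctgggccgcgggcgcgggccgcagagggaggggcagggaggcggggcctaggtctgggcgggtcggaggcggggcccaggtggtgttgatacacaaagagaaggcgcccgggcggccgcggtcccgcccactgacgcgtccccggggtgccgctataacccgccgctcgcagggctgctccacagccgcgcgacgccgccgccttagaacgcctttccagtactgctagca

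Among the heteromeric transporters, the main heavy chain and its leucine-carrying light chain fell together. SLC3A2 (chr11:62856109-62888860 on GRCh38.p14, as for the genes below), the heavy chain CD98hc that carries several light chains to the plasma membrane, stood at 510, 442 and 461 CPM in Lv_LINC00673, against 763, 784 and 667 CPM in Lv_NC. All Lv_LINC00673 libraries were below all Lv_NC libraries. The fitted level was 63.8% of the Lv_NC level (log2 fold change -0.65, SE 0.094, adjusted p = 0.00452), and the log2 fold change with the offset was -0.29 (adjusted p = 0.0124). SLC3A2 kept its call in all 21 alternatives, with log2 fold changes from -0.72 to -0.28.

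SLC7A5 (chr16:87830023-87869507), the L-type light chain LAT1 that imports leucine and other large neutral amino acids, stood at 328, 273 and 295 CPM in Lv_LINC00673, against 450, 514 and 471 CPM in Lv_NC. The groups were apart, with library 1 the highest of Lv_LINC00673 and the lowest of Lv_NC. The log2 fold change was -0.68 (SE 0.096, adjusted p = 0.00442), and -0.53 with the offset (adjusted p = 0.000479). On deposited FPKM the call was lost (log2 fold change -0.30 on the log2(FPKM + 1) scale, limma adjusted p = 0.363): Lv_NC library 1 was listed at 93.8 FPKM, against 174 and 153 FPKM in Lv_NC libraries 2 and 3, although its count share was close to theirs, and FPKM per CPM of this gene varied 1.86-fold between libraries. The pseudogene row SLC7A5P2, which shares sequence with SLC7A5, held 1.31 ± 0.19 CPM in Lv_LINC00673 and 2.24 ± 0.29 CPM in Lv_NC (SD, n = 3 each), and its numbered copy 4.12 ± 1.81 CPM in Lv_LINC00673 and 4.45 ± 2.21 CPM in Lv_NC, small parts of the SLC7A5 level.

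SLC7A6 (chr16:68264526-68301819), the light chain y+LAT2 that exchanges cationic for neutral amino acids, stood at 42.2, 42.6 and 41.2 CPM in Lv_LINC00673, against 51.1, 50 and 51 CPM in Lv_NC. The groups were narrow and apart, but the change was small (log2 fold change -0.27, SE 0.087, adjusted p = 0.049; -0.49 with the offset, adjusted p = 0.00295). The call was lost without any single library: the adjusted p was 0.0562, 0.0966 and 0.149 without Lv_LINC00673 libraries 1, 2 and 3, and 0.109, 0.108 and 0.127 without Lv_NC libraries 1, 2 and 3. SLC7A6 shares 3371 exon bases with SLC7A6OS on the opposite strand, and with the strand setting not given their reads cannot be told apart; SLC7A6OS stood at 28.9 ± 2.72 CPM in Lv_LINC00673 and 37.9 ± 4.97 CPM in Lv_NC (SD, n = 3 each; log2 fold change -0.39, adjusted p = 0.0556).

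SLC7A11, the light chain xCT that imports cystine for glutathione synthesis, stood at 25.6, 37.0 and 33.5 CPM in Lv_LINC00673, against 32.8, 29.6 and 27.9 CPM in Lv_NC. The groups overlapped, with Lv_LINC00673 library 1 the lowest of all. The log2 fold change was 0.09 (SE 0.15, adjusted p = 0.697). At 35.4% GC and 9645 bases it is the longest transcript among the tested members, and with the offset the log2 fold change was -0.77 (adjusted p = 0.00356), so that its direction differed between the fits. Its antisense row SLC7A11-AS1, which shares 865 exon bases with it, held 13, 14 and 38 counts in Lv_LINC00673 and 12, 0 and 0 counts in Lv_NC.

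The remaining heteromeric members were low. SLC7A8, the light chain LAT2, stood at 2.36, 1.81 and 2.40 CPM in Lv_LINC00673, against 1.36, 1.71 and 0.713 CPM in Lv_NC, apart but not called (log2 fold change 0.79, SE 0.33, adjusted p = 0.106). SLC7A7, the light chain y+LAT1, averaged 0.899 ± 0.123 CPM in Lv_LINC00673 and 0.751 ± 0.223 CPM in Lv_NC, with overlap (SD, n = 3 each; adjusted p = 0.591). SLC7A10, the light chain Asc-1, averaged 0.449 ± 0.237 CPM in Lv_LINC00673 and 0.562 ± 0.134 CPM in Lv_NC, also with overlap (adjusted p = 0.654). It shares 204 exon bases with the opposite-strand gene LRP3, and their reads there cannot be told apart. SLC3A1, the heavy chain of the cystine carrier of kidney and gut, had 0, 26 and 119 counts in Lv_LINC00673 and 18, 14 and 59 counts in Lv_NC, so that its spread within a group exceeded any difference (adjusted p = 0.688); it shares 1923 exon bases with the opposite-strand gene PREPL. Its partner SLC7A9 had 5, 0 and 20 counts in Lv_LINC00673 and 0, 13 and 7 counts in Lv_NC and was not tested.

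Of the cationic amino acid transporters, SLC7A1 (chr13:29509414-29595688), the widespread arginine and lysine carrier CAT1, stood at 208, 196 and 209 CPM in Lv_LINC00673, against 273, 282 and 289 CPM in Lv_NC. Every Lv_LINC00673 library was below every Lv_NC library by far more than the spread within a group. The log2 fold change was -0.46 (SE 0.076, adjusted p = 0.00596), and -0.56 with the offset (adjusted p = 0.000829). SLC7A2, the related carrier CAT2, stood at 11.7, 16.4 and 14.6 CPM in Lv_LINC00673, against 12.6, 10.2 and 11.5 CPM in Lv_NC, with the groups overlapping. Its log2 fold change was 0.32 (SE 0.17, adjusted p = 0.196) without and -0.34 (adjusted p = 0.0339) with the offset, the opposite sign. SLC7A3, another arginine carrier, had 12, 0 and 4 counts in Lv_LINC00673 and 0, 4 and 0 counts in Lv_NC, and the relatives SLC7A4 and SLC7A14 had no count in any library.

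Of 5 tested SLC1 genes, 2 were called higher and 2 lower in Lv_LINC00673, against 14.3% higher and 12.5% lower of all genes, and all 5 had groups without overlap, against 45.1% of all genes. SLC1A5 (chr19:46774883-46788594), the glutamine carrier ASCT2, shares 780 exon bases with AC008622.2 on the opposite strand. It stood at 746, 620 and 673 CPM in Lv_LINC00673, against 900, 986 and 893 CPM in Lv_NC. The groups did not overlap, with a log2 fold change of -0.45 (SE 0.091, adjusted p = 0.0105) and, with the offset, -0.15 (adjusted p = 0.0315). SLC1A4, the related exchanger ASCT1 for serine and alanine, stood at 59.3, 56.9 and 57.2 CPM in Lv_LINC00673, against 68.5, 69.7 and 68.2 CPM in Lv_NC. These groups were also apart, but the log2 fold change of -0.25 (SE 0.081) did not pass the test (adjusted p = 0.0513); the offset gave -0.47 (adjusted p = 0.00572), and the fit that left out Lv_LINC00673 library 1 gave -0.28 (adjusted p = 0.0425).

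Of the glutamate carriers, SLC1A3 and SLC1A1 were called higher. SLC1A3 (chr5:36596588-36688334), the glial glutamate transporter EAAT1, stood at 6.83, 8.53 and 7.65 CPM in Lv_LINC00673, against 4.66, 3.69 and 4.10 CPM in Lv_NC. All Lv_LINC00673 libraries were above all Lv_NC libraries (log2 fold change 0.89, SE 0.17, adjusted p = 0.00895; 0.63 with the offset, adjusted p = 0.00574). SLC1A1 (chr9:4490468-4587469), the neuronal and epithelial carrier EAAT3, stood at 1.57, 1.55 and 1.20 CPM in Lv_LINC00673, against 0.594, 0.555 and 0.795 CPM in Lv_NC. It was also higher without overlap (log2 fold change 1.15, SE 0.28, adjusted p = 0.0185; 0.97 with the offset, adjusted p = 0.033), and its call was lost without Lv_LINC00673 library 2 (adjusted p = 0.0672) or Lv_NC library 2 (adjusted p = 0.0603).

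SLC1A6 (chr19:14950033-15010643), the glutamate carrier EAAT4 known from cerebellar Purkinje cells, moved the other way, at 1.22, 0.881 and 0.953 CPM in Lv_LINC00673 and 1.64, 2.49 and 1.70 CPM in Lv_NC. The groups did not overlap (log2 fold change -0.93, SE 0.27, adjusted p = 0.034), but the call was not made with the offset (-0.78, adjusted p = 0.0538). It was lost without Lv_LINC00673 library 2 or 3 (adjusted p = 0.107 and 0.102) and without Lv_NC library 2 or 3 (adjusted p = 0.128 and 0.0631). SLC1A2, the main glutamate carrier of astrocytes, had 4 counts in Lv_LINC00673 library 2 and 0 in the others, and SLC1A7 had no count.

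Of 9 tested SLC38 genes, 4 were called higher in Lv_LINC00673, and 5 with the offset (all genes: 14.3%, and 15.6% with the offset); none was called lower in either fit. SLC38A2 (chr12:46358188-46372773), the stress-responsive System A carrier SNAT2 for alanine, glutamine and other neutral amino acids, stood at 97.0, 158 and 139 CPM in Lv_LINC00673, against 66.9, 37.5 and 55.5 CPM in Lv_NC. The groups were apart, with Lv_LINC00673 library 1 and Lv_NC library 1 nearest to each other. The fitted level was 2.47-fold the Lv_NC level (log2 fold change 1.30, SE 0.24, adjusted p = 0.00777), and the offset gave 1.69-fold (0.76 on the log2 scale, adjusted p = 0.00198). Like SLC3A2, it kept its call in all 21 alternatives, with log2 fold changes from 0.76 to 1.5.

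SLC38A1 (chr12:46183063-46269043), the glutamine carrier SNAT1, stood at 41.9, 58.7 and 52.2 CPM in Lv_LINC00673, against 34.0, 20.6 and 23.7 CPM in Lv_NC. Library 1 was the lowest and library 2 the highest of Lv_LINC00673, as for SLC38A2, and the groups did not overlap. The log2 fold change was 0.97 (SE 0.20, adjusted p = 0.011), and 0.33 with the offset (adjusted p = 0.0343), which is 1.26-fold in place of 1.95-fold. Without Lv_NC library 3 the call was narrowly lost (0.90, adjusted p = 0.0516).

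SLC38A5 and SLC38A4 were called higher at low levels. SLC38A5 (chrX:48458544-48470260), the System N carrier SNAT5, stood at 1.58, 1.13 and 1.01 CPM in Lv_LINC00673, against 0.710, 0.419 and 0.644 CPM in Lv_NC, without overlap (log2 fold change 1.07, SE 0.33, adjusted p = 0.041; 1.37 with the offset, adjusted p = 0.0158). At 57.0% GC it was the member called higher with the most GC. Its call was lost without Lv_LINC00673 library 1, 2 or 3 (adjusted p = 0.116, 0.0865 and 0.0667) and without Lv_NC library 2 or 3 (adjusted p = 0.119 and 0.0873). SLC38A4 (chr12:46764761-46832431), the carrier SNAT4 known from liver, had 22, 45 and 56 counts in Lv_LINC00673 and 11, 8 and 12 counts in Lv_NC. It had the largest log2 fold change of the tested members (2.13, SE 0.54, adjusted p = 0.021; 1.65 with the offset, adjusted p = 0.0347). Its call was lost without Lv_LINC00673 library 2 or 3 (adjusted p = 0.0734 and 0.0905) and without Lv_NC library 2 or 3 (adjusted p = 0.0627 and 0.0542).

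The other SLC38 genes were not called, among them SLC38A10, which shares 610 exon bases with AC027601.4 on the opposite strand. SLC38A10 stood at 129, 102 and 106 CPM in Lv_LINC00673, against 96.7, 110 and 107 CPM in Lv_NC, with the groups overlapping (log2 fold change 0.11, SE 0.11, adjusted p = 0.522; 0.23 with the offset, adjusted p = 0.0171; -0.01 without Lv_LINC00673 library 1). SLC38A7, which exports glutamine from lysosomes, stood at 34.1, 30.8 and 29.1 CPM in Lv_LINC00673, against 33.9, 40.9 and 39.4 CPM in Lv_NC. Only Lv_LINC00673 library 1 and Lv_NC library 1 crossed, and the log2 fold change was -0.28 (SE 0.12, adjusted p = 0.112). SLC38A9, the lysosomal arginine sensor upstream of mTORC1, averaged 6.58 ± 1.80 CPM in Lv_LINC00673 and 5.98 ± 0.387 CPM in Lv_NC (SD, n = 3 each; adjusted p = 0.681). SLC38A3, the System N carrier SNAT3, averaged 1.5 ± 0.75 CPM in Lv_LINC00673 and 1.34 ± 0.215 CPM in Lv_NC, and SLC38A6 3.14 ± 1.04 CPM in Lv_LINC00673 and 3.18 ± 1.51 CPM in Lv_NC (adjusted p = 0.778 and 0.974). SLC38A6 shares 245 exon bases with TRMT5 on the opposite strand. SLC38A8 and SLC38A11 had no count.

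Within the SLC43 family, SLC43A1 (chr11:57484534-57515702), the leucine facilitator LAT3, stood at 22.3, 22.2 and 22.3 CPM in Lv_LINC00673, against 31.8, 34.8 and 34.3 CPM in Lv_NC. The groups were far apart for their spread (log2 fold change -0.60, SE 0.10, adjusted p = 0.00662), while the offset gave -0.26 (adjusted p = 0.0562), which did not pass. SLC43A3, a nucleobase transporter, shares 1349 exon bases with AP000781.2 on the same strand, and their reads there cannot be told apart. It stood at 203, 182 and 182 CPM in Lv_LINC00673, against 218, 225 and 228 CPM in Lv_NC. Its groups did not overlap, but its log2 fold change of -0.25 (SE 0.082) did not pass (adjusted p = 0.0556) and was 0.01 with the offset (adjusted p = 0.867); without Lv_LINC00673 library 1 it was -0.31 (adjusted p = 0.0215). SLC43A2, the related facilitator LAT4, averaged 5.09 ± 1.24 CPM in Lv_LINC00673 and 6.34 ± 0.884 CPM in Lv_NC (SD, n = 3 each; log2 fold change -0.32, adjusted p = 0.323). Its numbered copy row, which may share its reads, held 7.19 ± 0.505 CPM in Lv_LINC00673 and 8.66 ± 1.65 CPM in Lv_NC (adjusted p = 0.301).

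SLC6A9 (chr1:43996483-44031462), the glycine transporter GlyT1, stood at 28.5, 24.6 and 23.9 CPM in Lv_LINC00673, against 31.7, 38.5 and 32.7 CPM in Lv_NC, without overlap (log2 fold change -0.42, SE 0.13, adjusted p = 0.0397). The call was not made with the offset (-0.13, adjusted p = 0.256), nor without Lv_LINC00673 library 2 or 3 (adjusted p = 0.112 and 0.134) or Lv_NC library 2 or 3 (adjusted p = 0.134 and 0.0858). It shares 404 exon bases with the opposite-strand gene CCDC24. SLC6A15, a sodium-coupled carrier of branched-chain amino acids, averaged 9.51 ± 0.860 CPM in Lv_LINC00673 and 7.73 ± 2.06 CPM in Lv_NC (SD, n = 3 each; adjusted p = 0.33). SLC6A14, a broad carrier of neutral and cationic amino acids, had 4, 4 and 13 counts in Lv_LINC00673 and 0 in each Lv_NC library, and was not tested. By library totals alone, without TMM factors, 3 counts correspond to 0.0344 to 0.0485 CPM over all libraries.

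The SLC36 carriers were not called. SLC36A1, which exports small amino acids from lysosomes, averaged 14.6 ± 1.16 CPM in Lv_LINC00673 and 15.8 ± 3.10 CPM in Lv_NC (SD, n = 3 each; log2 fold change -0.12, adjusted p = 0.653). SLC36A4 stood at 6.17, 11.7 and 10.7 CPM in Lv_LINC00673, against 6.5, 6.9 and 6.74 CPM in Lv_NC, where Lv_LINC00673 library 1 lay below every Lv_NC library and libraries 2 and 3 above them (log2 fold change 0.50, SE 0.23, adjusted p = 0.145; -0.23 with the offset, adjusted p = 0.403). SLC36A2 had 3 counts in Lv_LINC00673 library 3 and 0 in the others, and SLC36A3 had no count. SLC7A13 likewise had no count, which makes 7 members at 0 in all libraries.

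Levels between genes can be compared only per length, by deposited FPKM. In Lv_LINC00673 the order was SLC3A2 (247 ± 11.2 FPKM) and SLC1A5 (243 ± 16.2 FPKM), which did not differ beyond their spread, then SLC7A5 (111 ± 12.9 FPKM), SLC43A3 (72.7 ± 2.76 FPKM), SLC38A10 (30.3 ± 3.34 FPKM), SLC7A1 (28.2 ± 0.817 FPKM) and SLC38A2 (28.1 ± 7.40 FPKM), the last 3 within each other's spread (SD, n = 3). In Lv_NC it was SLC3A2 (346 ± 27.9 FPKM), SLC1A5 (296 ± 12.1 FPKM), SLC7A5 (140 ± 41.4 FPKM), SLC43A3 (77.4 ± 1.26 FPKM), SLC7A1 (34.7 ± 0.948 FPKM), SLC38A10 (25.4 ± 2.72 FPKM), SLC1A4 (13.7 ± 0.0931 FPKM), SLC43A1 (12.2 ± 0.531 FPKM), SLC6A9 (10.5 ± 1.04 FPKM) and SLC38A2 (10.2 ± 2.96 FPKM). SLC38A2 thus stood beside SLC7A1 in Lv_LINC00673 and beside SLC6A9 in Lv_NC. The order of SLC3A2 and SLC1A5 rests on the length used: per kilobase of the longest annotated transcript, over all libraries, they stood at 272 and 279 CPM.

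Ratios of counts within a library do not depend on scaling between libraries, but they carry the GC trend where the genes differ in GC content. The ratio of SLC7A5 to its heavy chain SLC3A2 was 0.643, 0.618 and 0.640 in Lv_LINC00673, against 0.589, 0.656 and 0.706 in Lv_NC. These overlapped, with a ratio of ratios of 0.977 (exact permutation test, two-sided, p = 0.7). The fits with the offset put it at 0.843. SLC38A2 relative to SLC1A5, both carriers of glutamine, was 0.130, 0.256 and 0.206 in Lv_LINC00673, against 0.0744, 0.0380 and 0.0621 in Lv_NC. Every Lv_LINC00673 library was above every Lv_NC library, 3.39-fold on average (exact permutation p = 0.1, the smallest that 3 against 3 can give). SLC38A2 was already higher and SLC1A5 already lower without overlap, so that this separation and its p were fixed in advance. The genes differ in GC content (38.1% for SLC38A2 and 61.3% for SLC1A5), and the fits with the offset put the same ratio at 1.87-fold. SLC1A5 relative to SLC7A5, the uptake and export sides of the glutamine-leucine exchange, was 2.27, 2.27 and 2.28 in Lv_LINC00673, against 2.00, 1.92 and 1.90 in Lv_NC, a narrow but complete separation (1.17-fold, exact permutation p = 0.1). SLC38A2 to SLC38A1 was 2.32, 2.70 and 2.66 in Lv_LINC00673, against 1.97, 1.82 and 2.34 in Lv_NC, with overlap (exact permutation p = 0.2). In all, 10 ratios were computed, 7 of them without overlap. The smallest adjusted p was 0.143, so that none passed 0.05, which this design cannot reach. The ratios share genes, and no share over gene pairs in general was computed to set beside this count. SLC38A1 to SLC1A5 and SLC38A2 to SLC7A5 also pair genes already separated in opposite directions. Some ratios without overlap changed direction in the fits with the offset. SLC7A6 to SLC3A2 went from 1.3-fold to 0.866-fold, and SLC7A11 to SLC3A2 from 1.65-fold to 0.716-fold. SLC1A4 to SLC1A5 went from 1.15-fold to 0.801-fold. The other ratios without overlap kept their direction.

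**Figure D3:**
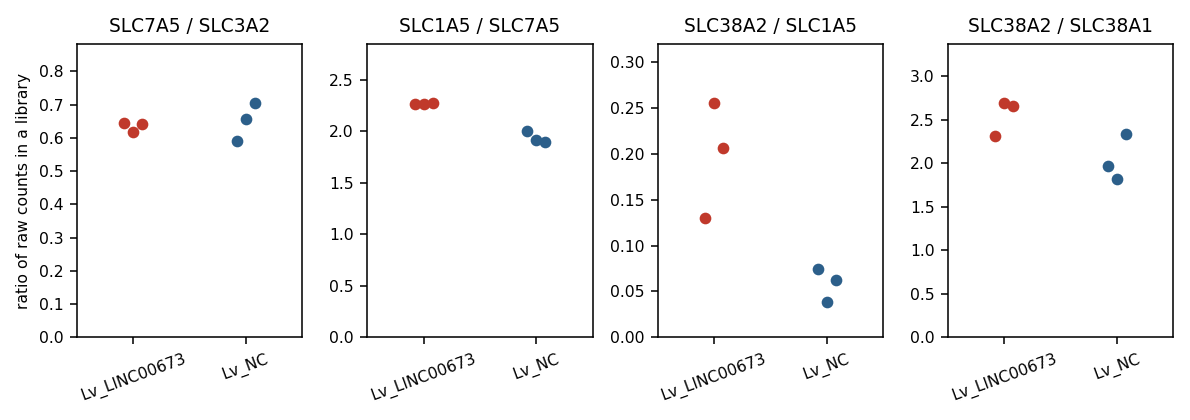
Ratios of raw counts within each library for 4 pairs of members, with 1 point per library and axes that start at 0. SLC7A5 to SLC3A2 overlaps between the groups, while SLC38A2 to SLC1A5 is 0.130 to 0.256 in Lv_LINC00673 and 0.0380 to 0.0744 in Lv_NC. The separation of SLC38A2 to SLC1A5 follows from the opposite separations of both genes.

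The members followed the GC trend of all genes. Of 12 tested members under 45% GC, 5 were called higher and their median log2 fold change was 0.66; of 19 at or over 45%, 8 were called lower and 1, SLC38A5, higher, with a median of -0.28. Across the 31 members the Spearman correlation of log2 fold change and GC content was -0.581, a description over genes of the same libraries. With the offset it was 0.03, and the medians were 0.05 under and -0.15 at or over 45% GC. The calls then were 5 higher and 2 lower under 45% GC, the lower ones being SLC7A11 and SLC7A2, and 2 higher and 6 lower at or over it, SLC38A10 and SLC1A4 among the new calls. SLC43A1, SLC6A9 and SLC1A6 were no longer called. What makes fold changes follow GC content was not tested.

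**Figure D4:**
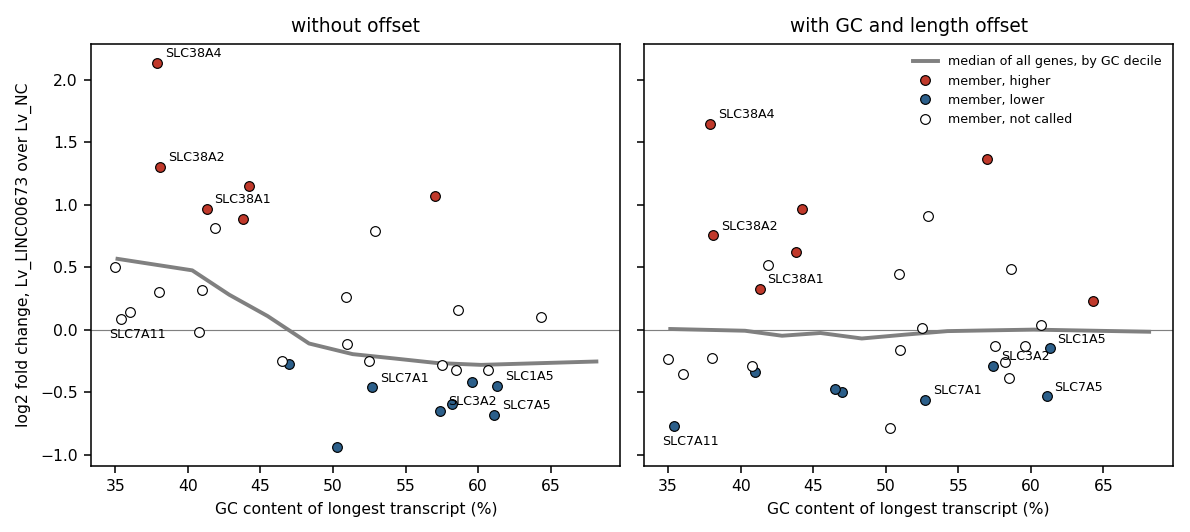
Log2 fold change of Lv_LINC00673 over Lv_NC against the GC content of the longest transcript for the 31 tested members, without (left) and with (right) the GC and length offset; the grey line is the median of all genes in each GC decile. SLC38A2 lies above the line in both panels (1.30 and 0.76), SLC7A5 below it (-0.68 and -0.53), and SLC7A11 changes side of 0.

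Genes that act with these transporters were counted from lists of the same pathways, to be read against the 14.3% higher and 12.5% lower calls among all genes (15.6 and 14.5% with the offset) and their median of 0.05 (0.06 with the offset). Of 29 tested ATF4 and amino acid stress genes, 17 were called lower (58.6%) and 3 higher (10.3%; median log2 fold change -0.45; 14 and 1 with the offset, median -0.28). ATF4 itself averaged 691 ± 53.8 CPM in Lv_LINC00673 and 1040 ± 59.2 CPM in Lv_NC (SD, n = 3 each; log2 fold change -0.59, adjusted p = 0.00469; -0.21 with the offset, adjusted p = 0.00722). GDF15, a secreted stress hormone, averaged 8.95 ± 1.89 CPM in Lv_LINC00673 and 27.0 ± 2.48 CPM in Lv_NC (log2 fold change -1.59, adjusted p = 0.0029; -1.16 with the offset, adjusted p = 0.00155), and TRIB3, a feedback inhibitor of ATF4, 91.2 ± 12.2 CPM in Lv_LINC00673 and 164 ± 12.6 CPM in Lv_NC (log2 fold change -0.85, adjusted p = 0.00418; -0.51 with the offset, adjusted p = 0.00123). SLC3A2, SLC7A1, SLC7A5, SLC7A11, SLC1A4, SLC1A5, SLC38A2 and SLC6A9 are known ATF4 targets that this list leaves out, and their own values are above.

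Upstream of ATF4, 3 of 6 eIF2 alpha kinase and GCN2 regulator genes were called higher (50%) and none lower (median log2 fold change 0.73; 2 higher with the offset, 33.3%, median 0.24). EIF2AK4, the amino acid sensing kinase GCN2, averaged 60.4 ± 6.85 CPM in Lv_LINC00673 and 36.2 ± 5.17 CPM in Lv_NC (SD, n = 3 each; log2 fold change 0.74, adjusted p = 0.00764; 0.59 with the offset, adjusted p = 0.00274). EIF2AK1, the haem-regulated kinase, averaged 102 ± 8.46 CPM in Lv_LINC00673 and 50.1 ± 15.02 CPM in Lv_NC (log2 fold change 1.03, adjusted p = 0.00921; 0.94 with the offset, adjusted p = 0.00707). Of 36 genes of mTORC1 amino acid sensing, 4 were called higher (11.1%) and 8 lower (22.2%), with a median of -0.005 (6 and 8 with the offset, median 0.02). The higher share and the median were near those of all genes. FNIP2, a partner of folliculin, and the kinase MTOR were among the higher (log2 fold change 1.11 and 0.61, adjusted p = 0.00592 and 0.00764; 0.60 and 0.44 with the offset), and SEC13, a subunit of GATOR2, among the lower (log2 fold change -0.44, adjusted p = 0.0107; -0.21 with the offset, adjusted p = 0.0441).

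Enzymes that use the imported amino acids were mostly lower where called. Of 37 tested amino acid metabolism enzymes, 13 were called lower (35.1%) and 2 higher (5.41%; median log2 fold change -0.31; 15 and 2 with the offset, median -0.23). GOT1, which makes aspartate in the cytosol, averaged 81.4 ± 2.08 CPM in Lv_LINC00673 and 124 ± 0.254 CPM in Lv_NC (SD, n = 3 each; log2 fold change -0.61, adjusted p = 0.0038; -0.37 with the offset), and ASS1, which joins citrulline and aspartate in arginine synthesis, 29.4 ± 4.13 CPM in Lv_LINC00673 and 51.7 ± 3.31 CPM in Lv_NC (log2 fold change -0.82, adjusted p = 0.00506; -0.43 with the offset, adjusted p = 0.00368). Of 14 glutathione genes, 8 were called lower (57.1%) and 2 higher (14.3%; median -0.41; 5 and 3 with the offset, median -0.08). GCLM, the modifier subunit of the enzyme that joins glutamate and cysteine, averaged 16.7 ± 1.43 CPM in Lv_LINC00673 and 30.2 ± 1.13 CPM in Lv_NC (log2 fold change -0.86, adjusted p = 0.00438; -1.44 with the offset, adjusted p = 0.00101). NFE2L2, which encodes NRF2, was higher, at 28.0 ± 3.76 CPM in Lv_LINC00673 and 12.9 ± 3.2 CPM in Lv_NC (log2 fold change 1.12, adjusted p = 0.00718; 1.11 with the offset, adjusted p = 0.00173).

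Cytosolic aminoacyl-tRNA synthetase genes, which load the imported amino acids onto tRNA, went both ways: of 23, 8 were called higher (34.8%) and 10 lower (43.5%; median log2 fold change -0.21; 7 and 6 with the offset, median -0.11). EPRS1, for glutamate and proline, was higher (log2 fold change 1.28, adjusted p = 0.00533; 0.91 with the offset, adjusted p = 0.0018), and YARS1, for tyrosine, was lower (-0.48, adjusted p = 0.00502; -0.23 with the offset, adjusted p = 0.0249). SARS1, for serine, was called lower without the offset (-0.52, adjusted p = 0.00557) but not with it (-0.21, adjusted p = 0.0676). Of 22 tested members among 31 other amino acid transporter genes, 4 were called lower (18.2%) and 1 higher (4.55%; median -0.10). With the offset 1 was called in each direction (4.55% each; median 0.01), under the shares of all genes. SLC6A6, the taurine transporter, averaged 110 ± 3.15 CPM in Lv_LINC00673 and 176 ± 3.98 CPM in Lv_NC (SD, n = 3 each; log2 fold change -0.67, adjusted p = 0.00297; -0.76 with the offset, adjusted p = 0.000281). Of 8 tested regulators of amino acid transporters, 1 was called in each direction (12.5% each), near the shares of all genes. NEDD4, a ubiquitin ligase, was called higher (log2 fold change 1.09, adjusted p = 0.00825; 0.39 with the offset, adjusted p = 0.0103), and CD44, a surface receptor that stabilises xCT, lower (-0.28, adjusted p = 0.0237; -0.58 with the offset, adjusted p = 0.00181).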

How the data were processed

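Total RNA of U2OS cells was sequenced from TruSeq libraries, per the labels' protocols. The authors deposited raw read counts and FPKM values for each gene; every column was matched by name to its library. Per the submitters' processing notes the build was hg38; no aligner, counter, annotation, strand setting or FPKM length model was given in the sources used here. Rows without a gene symbol (6056) held 3.22 to 4.26% of counts and stayed in library sizes and tests.

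After filterByExpr and TMM scaling, counts were tested in R 4.3.3 with edgeR 4.0.16 (quasi-likelihood, robust, two-sided), with Benjamini-Hochberg adjustment over 21933 genes. Standard errors were taken from the log2 fold change and the F statistic. Adjusted p-values come from this test where none other is named. The offset is a spline (5 degrees of freedom) of GC content and length per library, fitted above a mean log2 CPM of 2 and run on the 18492 tested genes with both values, from the longest GENCODE 29 transcript; LINC00673 had none. Coordinates and promoters are RefSeq's on GRCh38.p14, 1-based. The fit without the offset was tested on simulated counts that held no GC or length trend. The fit with the offset was not tested in this way.

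The alternatives tried were library totals alone, upper-quartile or RLE factors, DESeq2 1.42.0, no filter, and a filter of 1 CPM in 3 libraries. Others were limma-voom (limma 3.58.1), non-robust fits, limma on log2(FPKM + 1) and log2(FPKM + 0.1), and summed copy rows. The rest were the offset, the same genes without it, a replicate block, the offset with that block, and each library left out. Members, lists and tests were chosen with earlier results of these data known. Named were LINC00673, every member, with values per library for called members and the 12 of highest mean FPKM, and up to 3 called genes of smallest adjusted p per list; part of these are described.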

Additional observations from a re-analysis of the deposited data

How the results depend on the processing

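Of the 14 called members, 7 kept their call without each single library (SLC3A2, SLC7A5, SLC7A1, SLC1A5, SLC38A2, SLC43A1 and SLC1A3), and SLC3A2 and SLC38A2 kept it in all 21 alternatives. Leaving out 1 library gave 3 to 6 higher and 5 to 9 lower members, and 2800 to 6498 genes called in place of 5883. Over 12348 genes, the deviations of same-numbered libraries from their group means correlated at -0.423, -0.36 and 0.041. These deviations carry the GC trend, which differed between the libraries of a group, so they cannot show whether the replicate numbers pair the libraries. Fitted as a replicate block, the numbers left 1208 genes, 1 higher member and 2 lower members; with the GC and length offset and the block there were 3561 genes, 3 higher members and 6 lower members. Library totals alone moved the median of all genes by 0.165 on the log2 scale and the share of higher calls to 76.8%, against 53.5%; 5 members were then called lower. Limma on log2(FPKM + 1) and on log2(FPKM + 0.1) called 4 members lower each and gave 74.3 and 74.2% higher calls. The block also moved that share, to 66.2%. LINC00673 was called by DESeq2 (-0.44, adjusted p = 0.0421; range over its alternatives 0.0421 to 0.353). SLC43A3 turned to 0.01 with the offset, and with the offset and block, and SLC38A10, at -0.01 to 0.16 with 1 library left out, to -0.01 without Lv_LINC00673 library 1. The cause was not tested. SLC38A4 could not be tested under the filter of 1 CPM. Over the alternatives, lower calls ranged from 6 to 19 for ATF4 and amino acid stress genes, 5 to 17 for metabolism enzymes, 1 to 8 for glutathione genes, 0 to 10 for mTORC1 sensing genes, 1 to 10 for synthetases, 1 to 6 for other transporters and 0 to 3 for regulators. Higher calls ranged from 0 to 3, 0 to 2, 1 to 3, 1 to 6, 3 to 9, 0 to 2 and 0 to 1 in these lists, and from 1 to 4 for eIF2 alpha kinases.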

Other observations

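SLC38A1, SLC38A2 and SLC38A4, all higher in Lv_LINC00673, are neighbours on chromosome 12. The other 14 tested genes from 1000000 bases before to 1000000 bases after this group (chr12:45183063-47832431, GRCh38.p14), a window chosen after its values were seen, had a median log2 fold change of 0.25, with 6 called higher (42.9%) and 2 lower (14.3%), against 14.3% and 12.5% of all tested genes. On the SLC38A1 side, ARID2, a subunit of a chromatin remodeller, averaged 15.9 ± 3.25 CPM in Lv_LINC00673 and 5.98 ± 1.38 CPM in Lv_NC (SD, n = 3 each; log2 fold change 1.41, edgeR adjusted p = 0.0053; 0.72 with the GC and length offset, adjusted p = 0.0032), and SCAF11 averaged 30.5 ± 3.47 CPM in Lv_LINC00673 and 15.3 ± 3.44 CPM in Lv_NC (log2 fold change 1.00, adjusted p = 0.0075; 0.30 with the offset, adjusted p = 0.0325). On the SLC38A4 side, AMIGO2, an adhesion protein gene, averaged 193 ± 8.17 CPM in Lv_LINC00673 and 125 ± 8.66 CPM in Lv_NC (log2 fold change 0.63, adjusted p = 0.0044; 0.44 with the offset), and the haem transporter gene SLC48A1 28.8 ± 3.24 CPM in Lv_LINC00673 and 46.3 ± 5.98 CPM in Lv_NC (log2 fold change -0.68, adjusted p = 0.00936; -0.39 with the offset, adjusted p = 0.0155). The neighbours called higher were at 35.7 to 44.3% GC, except PCED1B (54.8%). The lower ones, SLC48A1 and RAPGEF3, were at 57.9 and 59.1%. Except for PCED1B, these calls had the direction of the GC trend of all genes, whose part in them was not tested. With the offset these calls stayed, and LINC00938 was also called lower (log2 fold change -0.26, adjusted p = 0.187; -1.06 with the offset, adjusted p = 0.00181). Whether the neighbours and the SLC38 genes moved together for a shared reason was not tested.

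TXNIP, a gene known to respond to nutrient supply, averaged 117 ± 33.9 CPM in Lv_LINC00673 and 51.4 ± 5.76 CPM in Lv_NC (SD, n = 3 each; log2 fold change 1.18, edgeR adjusted p = 0.00697; 1.03 with the offset, adjusted p = 0.00494). It was named after its values were seen.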
